A study of Mus musculus with 6 samples.

Results

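The genes described here encode the proteins of the cytosolic ribosome, taken as protein-coding genes of the count table whose mouse symbols are Rpl or Rps followed by a number (with the suffixes a, x, y or l), Rplp0, Rplp1, Rplp2 or Rpsa. This rule found 85 genes among 55414, of which 52 belong to the large and 33 to the small subunit. Paneth cells (PCs), antimicrobial secretory cells of the intestinal crypt base, were sorted from C57BL/6J mice 15 h after an injection of PBS or of tumour necrosis factor (TNF), with 3 mice per group and 1 RNA-seq library per mouse. All mice, controls included, were IFNAR1 KO, that is without Ifnar1, which encodes one of the chains that bind type I interferons. The labels gave neither age nor sex, litter or sequencing batch. What part of Ifnar1 was removed was not stated either, and Ifnar1 (chr16:91281942-91305789, mm39) kept 72, 133 and 130 counts in PBS and 61, 159 and 158 counts in TNF, so that its count does not check the genotype.

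A ribosome is built from ribosomal RNA and a set of proteins, most of which are needed once per particle. The small subunit reads the mRNA, the large subunit joins the amino acids, and the stalk of the large subunit, made of the P proteins, recruits the factors that drive translation. Ribosomal protein mRNAs are among the most abundant of any dividing or secreting cell, and in mammals they carry a run of pyrimidines at their start, the TOP motif, through which their translation responds to growth signals. PCs secrete large amounts of antimicrobial protein and so depend on this machinery.

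Total counts ranged from 12747484 to 17039511 per library. TNF replicate 1 stood apart from its group. Over log2 CPM of the genes tested it correlated with the PBS libraries at r = 0.937 to 0.945 and with the other TNF libraries at 0.883 and 0.884, whereas TNF replicates 2 and 3 correlated at 0.954. Reg3g, an antimicrobial lectin, took 0.240% of the counts of TNF replicate 1 against 0.258 to 0.270% in PBS and 3.33 and 3.36% in TNF replicates 2 and 3. Fold changes and counts of genes are therefore also given without this library. PC markers were abundant in every library, with Lyz1 at 16.1 to 20.2% of counts. The 14 listed PC genes summed to 420529 to 519049 CPM in PBS and 319748 to 685807 in TNF. Without TNF replicate 1 their median log2 fold change was -0.32. In that edgeR fit 1 of the 14 was called higher and 2 lower, against 9.1% and 5.4% of all genes. The 11 genes with over 1% of counts each together took 51.5 to 55.6% in PBS. In TNF replicates 1 to 3 they took 61.8, 42.8 and 52.7%. Of the markers of other cells, 4 of 5 erythroid genes and the lymphocyte genes Cd3d, Jchain and Nkg7 were at 0 in all libraries, 13 immune markers summed to 22.2 to 54.6 CPM in PBS and 35.9 to 45.2 in TNF, and 8 stromal and endothelial markers to at most 2.13 CPM. The 12 enterocyte markers summed to 321 to 367 CPM in PBS and 91.1 to 272 in TNF, the 15 cell cycle genes to 327 to 523 and 175 to 452, the 12 stem cell genes to 2893 to 3521 and 1013 to 5047, the 9 goblet cell genes to 12437 to 13723 and 7976 to 15868, the 9 tuft cell genes to 485 to 1730 and 591 to 1194, and the 8 enteroendocrine genes to 49.5 to 166 and 37.9 to 107. In the stem cell and cell cycle lists TNF replicate 1 was the highest of all libraries or within the PBS range (5047 and 452 CPM), and TNF replicates 2 and 3 were below PBS (1173 and 1013, and 175 and 187 CPM). Without TNF replicate 1, 5 of 12 stem cell, 8 of 15 cell cycle, 5 of 9 goblet cell and 7 of 11 tested enterocyte genes were called lower in edgeR, where 5.4% of all genes were. The part of these other cells in the results below was not tested, and in sorted bulk samples fewer cells of a type cannot be told apart from less RNA per cell.

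Of the 85 genes, 82 had enough counts to be tested. The others were Rpl10l, at 0 counts in all libraries, Rpl39l, with 2 counts in PBS replicate 3 alone, and Rpl3l, with 1 count in TNF replicate 1 alone. These are relatives of Rpl10, Rpl39 and Rpl3 known from testis or striated muscle, and a count of 0 allows up to 3 counts per library, or 0.146 to 0.254 CPM. Among the tested genes 78 had at least 100 counts in every library.

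In TMM-scaled CPM, the ribosomal protein genes were mostly a little higher in TNF replicates 1 and 3, and not in TNF replicate 2. The largest shift was in TNF replicate 1, the library that stood apart from its group, with Reg3g no higher than in PBS. In TNF replicate 1, 77 of the 82 genes lay above all 3 PBS values, and in TNF replicate 3 it was 66. In TNF replicate 2 it was 23, while 21 lay below all PBS values. Relative to the PBS mean, the median gene stood at 0.01, 0.04 and -0.07 on the log2 scale in PBS and at 0.76, 0.00 and 0.47 in TNF replicates 1 to 3. On this scale the spread between TNF libraries was as large as the shift itself. The TMM factors behind it were 0.959, 1.11 and 1.07 in PBS and 0.798, 1.20 and 0.916 in TNF replicates 1 to 3. In raw shares, given below, TNF replicate 2 was above PBS too. The median of all genes tested lay between 0.00 and 0.02 in every library.

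**Figure D1:**
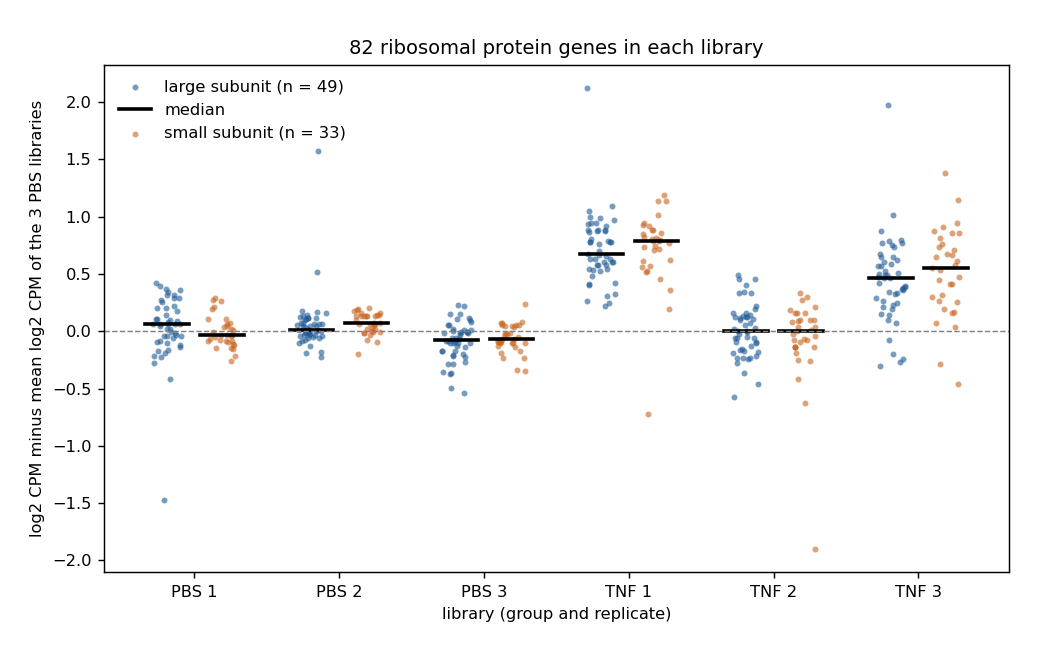
Each point is 1 of the 82 tested ribosomal protein genes in 1 library, as log2 CPM minus its mean log2 CPM in the 3 PBS libraries, for the large (blue, 49 genes) and small subunit (orange, 33 genes); black bars are medians and the dashed line is the PBS mean. TNF 1 and TNF 3 sit above the PBS mean for nearly all genes, while TNF 2 is centred on it, with medians of 0.00.

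With all 6 libraries, 78 of the 82 genes had a positive log2 fold change (TNF over PBS), against 50% of all 13026 genes tested, and their median was 0.43 (interquartile range 0.31 to 0.57). None of the 82 passed an adjusted p of 0.05 in edgeR's quasi-likelihood test, and neither did any other gene (0% of those tested in either direction). The smallest adjusted p among them was 0.288, for Rpl38. At an unadjusted p under 0.05, 15 were higher and 0 lower, that is 18.3% higher against a background of 8.25%. DESeq2, which called 1.71% of the genes of the edgeR test for which it gave a p, and limma-voom, which called 0%, also called 0 of these genes. At an unadjusted p under 0.05 each had 21 of them higher, against 7.78% of those genes in DESeq2 and 6.73% in limma-voom. The 3 TNF values lay above the 3 PBS values for 23 genes (28.0%, background 9.07%) and below them for 1, Rps4l (background 7.82%).

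Without TNF replicate 1 the median was 0.25 and 71 of the 82 genes were positive, against 49.6% of all genes. Still none passed, although 1980 of 13660 genes (14.5%) did in that fit. The smallest adjusted p was then 0.0515, for Rps27l. At an unadjusted p under 0.05, 13.4% were higher against a background of 16.1%, and values above all of PBS were again found for 23 genes (28.0%), against 24.1% of all genes. These last shares, which stood over the background with 6 libraries, were near or under it with 5, while the share of positive fold changes stayed above it. Without TNF replicate 2 the median was 0.55.

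How far these genes stood above PBS also moved with the scaling. In raw counts they took 1.76, 2.03 and 1.83% of the library in PBS and 2.33, 2.15 and 2.29% in TNF, so the groups did not overlap (means of 1.87% ± 0.137 and 2.25% ± 0.0957, SD, n = 3). When the 11 most abundant genes were taken out of the total, the shares were 3.97, 4.18 and 3.93% in PBS and 6.08, 3.75 and 4.85% in TNF. TNF replicate 2, in which those abundant genes took the least, was then below all PBS libraries. With library size alone in place of TMM factors the median log2 fold change was 0.27 and that of all genes -0.11, a difference of 0.38.

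**Figure D2:**
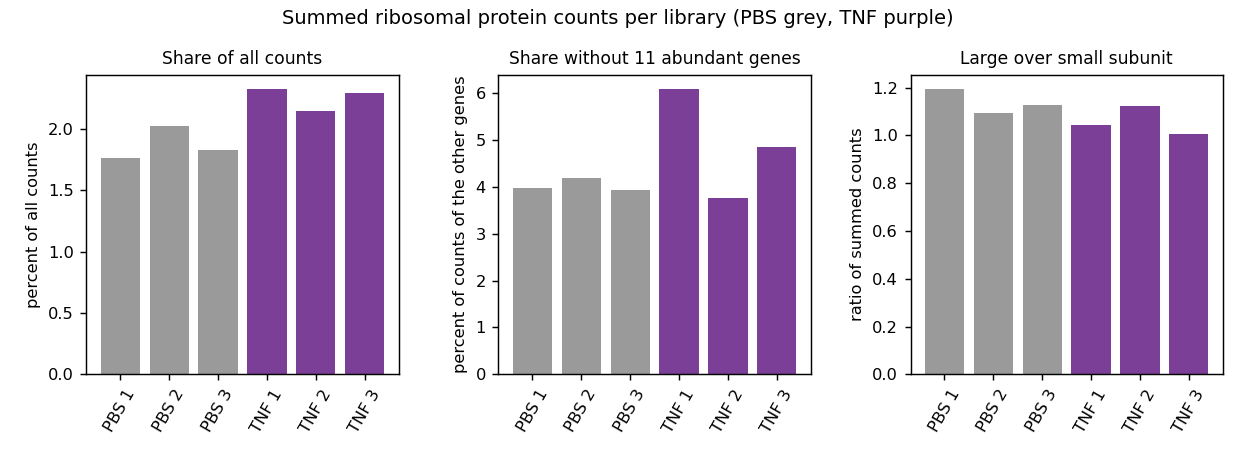
Bars give, per library, the share of all counts in the 85 ribosomal protein genes (left), the same share after 11 genes above 1% of counts were removed from the total (middle), and the ratio of summed large- to small-subunit counts (right). The TNF bars exceed all PBS bars on the left only; in the middle TNF 2, at 3.75%, is lowest, and on the right TNF 2, at 1.12, lies among the PBS libraries.

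Other genes with short coding sequences were also higher in TNF for the most part. The 3527 other tested genes with a coding length of up to 1000 bases had a median log2 fold change of 0.21, 65.9% of them above 0, and stood at 0.20, 0.16 and 0.25 in TNF replicates 1 to 3. The ribosomal protein genes showed the order 0.76, 0.00 and 0.47. Within them, the 25 with up to 400 coding bases had a median log2 fold change of 0.48 and the other 57 a median of 0.42 (0.23 and 0.26 without TNF replicate 1). The part of transcript length in the result was not tested.

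Among large-subunit genes 48 of 49 tested had a positive log2 fold change, with a median of 0.39 (0.24 without TNF replicate 1). Rpl38, a small protein at the subunit's surface known for skeletal patterning defects when mutated in mice, was at 91, 73.9 and 60.7 CPM in PBS and 153, 102 and 150 CPM after TNF. All TNF values lay above PBS, and the log2 fold change was 0.84 (SE 0.25, adjusted p 0.288 in edgeR, 0.0573 without TNF replicate 1). Rpl8, a component of the core near the peptidyl transferase centre, had the most even values of the TNF mice, 444, 446 and 456 CPM, against 359, 309 and 287 CPM in PBS. In TNF replicate 2 it stood 0.49 above the median gene, more than any other gene with a mean of at least 5 CPM, and its log2 fold change was 0.49 (SE 0.23, adjusted p 0.429 in edgeR) with and 0.52 without TNF replicate 1.

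At the other end of the large subunit were 2 of its early-assembling core proteins. Rpl4 was at 704, 508 and 479 CPM in PBS and 649, 508 and 469 CPM after TNF, a log2 fold change of -0.06 (SE 0.28, adjusted p 0.947 in edgeR), and of -0.19 without TNF replicate 1. Rpl3, which reaches into the peptidyl transferase centre, was at 374, 423 and 358 CPM in PBS and 574, 279 and 319 CPM after TNF. TNF replicate 1 was above and the other TNF libraries below all PBS values of Rpl3, and its log2 fold change was 0.02 (SE 0.31, adjusted p 0.985 in edgeR) with and -0.35 (adjusted p 0.355) without that library. Rpl23a and Rpl29 varied among the PBS mice themselves: Rpl23a was at 75.2, 61.0 and 38.6 CPM in PBS and 108, 74.3 and 85.5 CPM after TNF, and Rpl29 at 71.2, 55.2 and 68.3 and at 76.3, 69.7 and 89.1 CPM. The groups overlapped for both genes.

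The small subunit had 30 of 33 genes with a positive log2 fold change and a median of 0.48 (0.31 without TNF replicate 1). Rps25, a protein of the head of the subunit required by some viral internal ribosome entry sites, was at 58.0, 67.4 and 67.3 CPM in PBS and 141, 74.4 and 142 CPM after TNF. Its groups did not overlap, and its log2 fold change was 0.89 (SE 0.27, adjusted p 0.297 in edgeR, 0.0713 without TNF replicate 1). Rps12 was at 366, 364 and 317 CPM in PBS and 795, 351 and 654 CPM after TNF, so that TNF replicate 2 lay inside the PBS range. Its log2 fold change was 0.78 (SE 0.32, adjusted p 0.383 in edgeR), and in TNF replicate 1 it was the gene with a mean of at least 5 CPM farthest above the median gene, by 0.43. Its log2 fold change was 0.54 without TNF replicate 1 (adjusted p 0.232).

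Rps26, which lines the exit channel of the mRNA, was above all PBS values only in TNF replicate 1. It was at 244, 213 and 178 CPM in PBS and 288, 157 and 152 CPM after TNF, and in TNF replicate 3 it stood 0.94 below the median gene, the lowest of that library. Its log2 fold change was -0.09 (SE 0.30, adjusted p 0.928 in edgeR), and -0.43 (adjusted p 0.233) without TNF replicate 1.

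**Figure D3:**
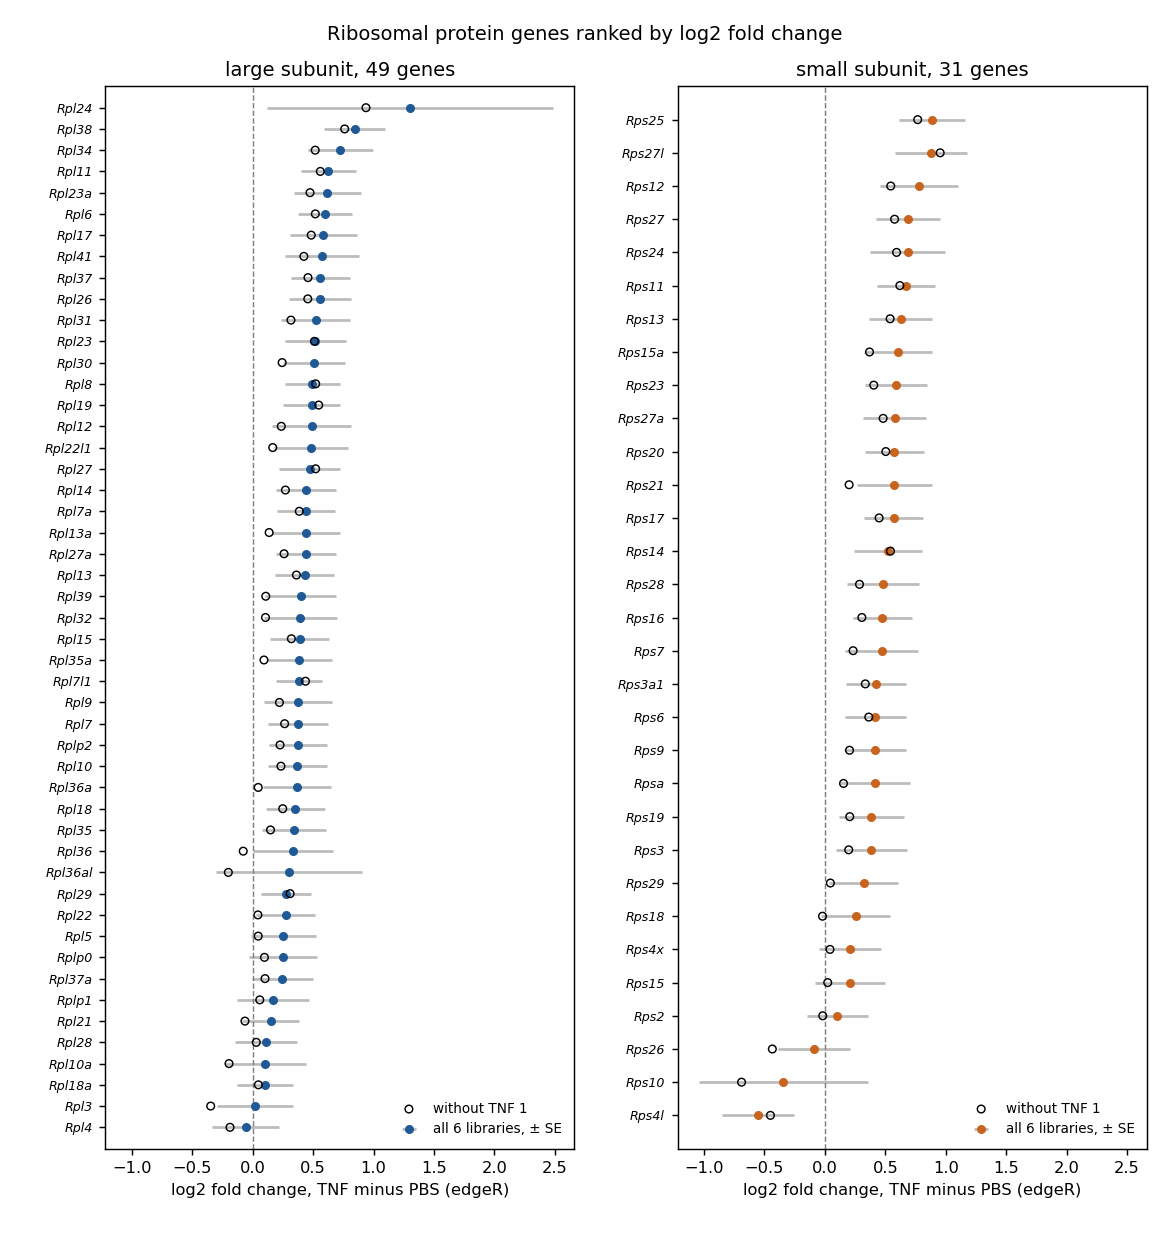
Tested genes of the large (left, 49) and small subunit (right, 31 of 33) in order of their log2 fold change, TNF minus PBS; filled points with bars are edgeR estimates ± SE from all 6 libraries and open circles the estimates without TNF 1. Nearly all filled points lie right of 0, most open circles lie nearer to 0, and Rpl3, Rpl4, Rps26, Rps10 and Rps4l lie at the bottom of each panel.

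The subunits did not separate beyond the spread between mice. In each library, the median deviation of small-subunit genes minus that of large-subunit genes was -0.10, 0.05 and 0.00 in PBS and 0.12, 0.00 and 0.09 in TNF. The ratio of summed large- to small-subunit counts, which no scaling factor enters, was 1.19, 1.09 and 1.13 in PBS and 1.04, 1.12 and 1.01 in TNF (1.14 ± 0.0510 and 1.06 ± 0.0603, SD, n = 3). TNF replicates 1 and 3 were below all PBS libraries and TNF replicate 2 was inside their range. Of the small-subunit genes 10 of 33 were higher at an unadjusted p under 0.05, and of the large-subunit genes 5 of 49, that is 30.3% and 10.2% against 8.25% of all genes. Without TNF replicate 1 the numbers were 4 and 7, or 12.1% and 14.3% against 16.1% of all genes.

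Per kilobase of coding sequence, levels spanned 3 orders of magnitude over all tested genes, a span set by the lowest genes listed below. Those are Rps4l, a copy of Rps4x, and genes whose low values are uncertain, as the next paragraph explains. Without these lowest genes, levels ranged from 62.1 (Rpl27) to 2381 CPM per kb (Rpl41). Ribosomes hold most of the proteins in that range in near equal numbers. The highest were Rpl41 (2381 CPM per kb), the shortest of the proteins, Rps24 (2183), Rplp1 (1495), Rps14 (1495) and Rpl12 (1230), and the medians were 373 for the large and 595 CPM per kb for the small subunit. The coding lengths are those of the annotated canonical transcript, 138 bases for Rpl41, and the untranslated parts, which also give reads, were left out. The lowest tested genes were Rpl24 (1.54 CPM per kb), Rps10 (3.36), Rpl36al (5.81), Rps4l (8.69) and Rpl13a (33.0).

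Of these low genes 4 shared a feature of the annotation. More than 80% of the coding bases of Rpl24 (83.4%), Rps10 (92.1%), Rpl36al (95.3%) and Rpl13a (97.5%) lay inside exons of another annotated gene on the same strand, which was true of no other tested gene; the next was Rpl19 with 13.6%. The overlapping genes Gm28037, Gm49804, Gm49383 and Gm45713 were listed at 0 counts in all libraries, and Zbtb11os1, which also overlaps Rpl24, at 12 to 31 counts. The low values of these 4 genes are therefore uncertain, since the treatment of reads shared by overlapping genes is not given in the sources used here. Rpl24 had 0 counts in PBS replicate 1 and at most 18 in any library, and its log2 fold change of 1.30 (SE 1.18, adjusted p 0.685 in edgeR), the highest of all 82, was close to its error (0.94 without TNF replicate 1). Rps10, at 1.51, 2.13 and 1.91 CPM in PBS and 2.12, 0.391 and 1.93 CPM after TNF, had a log2 fold change of -0.34 (SE 0.70, adjusted p 0.869 in edgeR), and of -0.69 without TNF replicate 1. Rpl13a was at 14.8, 19.2 and 17.1 CPM in PBS and 32.5, 16.7 and 20.3 CPM after TNF, with overlap.

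**Figure D4:**
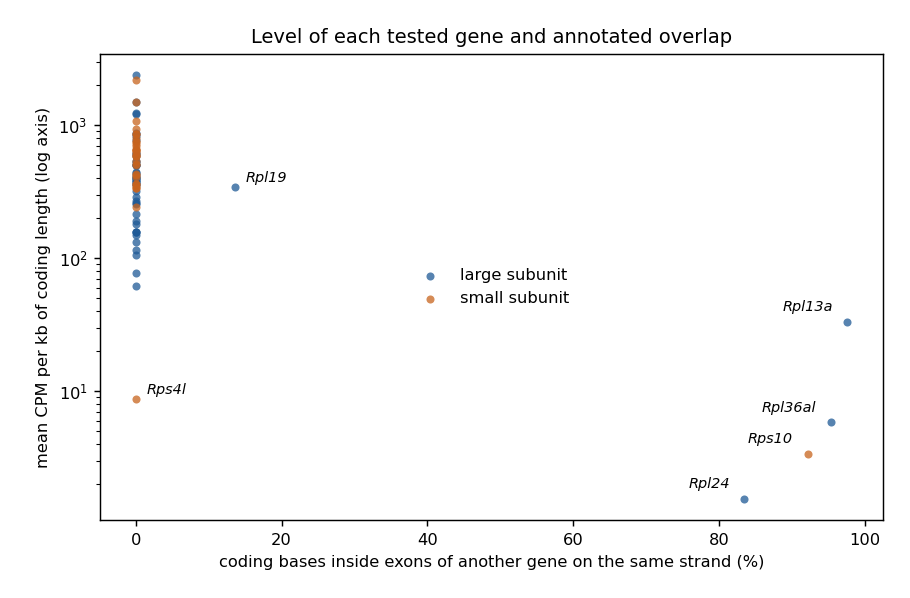
Each point is 1 tested ribosomal protein gene, with the percent of its coding bases inside exons of another gene on the same strand on the x axis and its mean CPM per kb of coding length over 6 libraries on the log y axis. The 4 genes at the right, with 83.4 to 97.5% overlap, are at 1.54 to 33.0 CPM per kb; Rps4l, at 8.69, is the only gene without overlap in that range.

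Ribosomal protein genes have many processed pseudogenes, copies of their mRNA in the genome, and a read that matches a copy equally well cannot be placed. For 23 of the 85 genes every stretch of 96 coding bases had an exact copy elsewhere in the GRCm39 genome, Rpl38 and Rps27 among them, and for 9 genes none had. The 23 had a median log2 fold change of 0.48 and the other 59 tested genes one of 0.39 (0.36 and 0.21 without TNF replicate 1). Their values may miss or include reads of the copies. On the opposite strand, another gene covered all coding bases of Rpl28 and 55.3% of those of Rpl23a, and without strand the reads of such genes cannot be told apart. Use of strand was not stated, and neither was the treatment of reads with several matches.

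Paralogues that match the same rule were compared in pairs. Rps27 and Rps27l encode close variants of 1 small-subunit protein, and Rps27l is known as a target of p53. Their coding sequences (252 bases each, stop codon left out, mm39, genes at chr3:90119819-90120977 and chr9:66853340-66856808) are printed because Rps27l had the highest log2 fold change of the genes with over 100 counts after Rps25, and the 60 aligned differences, in capitals, keep reads of the pair apart. They shared no exact stretch of 96 bases and were 76.2% identical.
Rps27: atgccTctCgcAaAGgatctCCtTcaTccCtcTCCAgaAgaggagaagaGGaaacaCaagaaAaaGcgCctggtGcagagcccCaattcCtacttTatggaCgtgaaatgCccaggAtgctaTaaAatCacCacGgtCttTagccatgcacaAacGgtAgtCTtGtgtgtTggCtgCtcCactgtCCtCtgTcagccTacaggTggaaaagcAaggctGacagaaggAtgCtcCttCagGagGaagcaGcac
Rps27l: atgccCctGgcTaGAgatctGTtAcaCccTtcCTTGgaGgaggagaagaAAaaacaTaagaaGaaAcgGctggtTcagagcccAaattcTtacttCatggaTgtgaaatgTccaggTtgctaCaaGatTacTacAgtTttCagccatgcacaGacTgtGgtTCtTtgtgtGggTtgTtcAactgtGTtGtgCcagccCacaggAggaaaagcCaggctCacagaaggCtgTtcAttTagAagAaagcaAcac

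Rps27l was at 110, 127 and 150 CPM in PBS and 218, 161 and 332 CPM after TNF. The groups did not overlap, and TNF replicate 3 was the highest by far, 0.91 above the median gene of that library. Its log2 fold change was 0.88 (SE 0.30, adjusted p 0.317 in edgeR), and 0.95 (adjusted p 0.0515) without TNF replicate 1. Rps27 was at 156, 188 and 154 CPM in PBS and 313, 185 and 304 CPM after TNF, with TNF replicate 2 inside the PBS range, at 0.69 (SE 0.27, adjusted p 0.354 in edgeR) with and 0.58 without TNF replicate 1. Rps27l made up 41.3, 40.3 and 49.3% of the counts of the pair in PBS and 41.0, 46.5 and 52.2% in TNF, so the balance between them overlapped between groups.

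Rps4l, a copy of the X-linked Rps4x, was the one gene with all TNF values below all PBS values. It was at 8.28, 9.26 and 6.82 CPM in PBS and 4.83, 5.18 and 6.59 CPM after TNF, from 57 to 139 counts, with a log2 fold change of -0.55 (SE 0.30, adjusted p 0.481 in edgeR), and of -0.45 without TNF replicate 1. Rps4x was at 330, 303 and 288 CPM in PBS and 440, 279 and 345 CPM after TNF. The share of Rps4l in the counts of this pair was 2.45, 2.97 and 2.31% in PBS and 1.09, 1.82 and 1.87% in TNF, without overlap (2.58% ± 0.347 and 1.60% ± 0.440, SD, n = 3).

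In the other pairs the shares overlapped between groups. Rpl22l1, which is known to be held down by Rpl22, took 37.4, 44.2 and 45.0% of the counts of that pair in PBS and 47.7, 41.4 and 46.3% in TNF. Rpl7l1 took 10.6, 10.6 and 14.6% of the counts of the pair with Rpl7 in PBS and 9.83, 13.3 and 13% in TNF. Rpl7l1 itself did not overlap between groups, at 46.7, 47.7 and 55.1 CPM in PBS and 61.6, 62.5 and 70.7 CPM after TNF, with a log2 fold change of 0.38 (SE 0.19, adjusted p 0.443 in edgeR), and of 0.44 without TNF replicate 1. Rpl36al, one of the overlapped genes, took 1.47 to 3.01% of its pair with Rpl36a in PBS and 1.60 to 2.45% in TNF. For Rpl10, Rpl39 and Rpl3, at 238 to 386, 96.8 to 217 and 279 to 574 CPM, the relative was at or near 0, as given above.

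The stalk proteins all had log2 fold changes below the median of the 82 genes. Rplp0, the base of the stalk and often used as a reference gene, was the most counted of all, at 1065, 1041 and 1041 CPM in PBS and 1529, 1013 and 1202 CPM after TNF (log2 fold change 0.25, SE 0.29, adjusted p 0.759 in edgeR). Rplp1 was at 583, 418 and 442 CPM in PBS and 637, 370 and 619 CPM after TNF, with overlap. Rplp2, its partner on the stalk, was at 279, 258 and 240 CPM in PBS and 408, 282 and 316 CPM after TNF, without overlap, at 0.37 (SE 0.24, adjusted p 0.559 in edgeR). Rpsa, the small-subunit protein also known as the laminin receptor, was at 487, 504 and 521 CPM in PBS and 908, 504 and 603 CPM after TNF. The log2 fold changes without TNF replicate 1 were 0.10 for Rplp0, 0.06 for Rplp1, 0.23 for Rplp2 and 0.15 for Rpsa.

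Of the ribosomal proteins outside the symbol rule, Fau, which encodes eS30 fused to a ubiquitin-like protein, was at 81.4, 87.0 and 80.9 CPM in PBS and 135, 101 and 138 CPM after TNF, without overlap (log2 fold change 0.58, SE 0.21, adjusted p 0.331 in edgeR). Rack1, a scaffold on the small subunit, was at 716, 799 and 769 CPM in PBS and 1122, 696 and 975 CPM after TNF. The log2 fold change without TNF replicate 1 was 0.54 for Fau and 0.15 for Rack1.

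The make-up of the ribosomal protein counts was then compared, each gene as a percent of the summed counts of all 85 in its library, which removes the scaling between libraries. By this measure 8 of the 82 genes were higher in all TNF libraries than in all PBS libraries, and 9 were lower. Of all genes tested, scaled in the same way, 0.929% were higher and 21.7% lower. Both backgrounds are shifted by the sum used for scaling and are poor comparators. That sum was 17105 to 18378 CPM in PBS. It was higher in TNF replicates 1 and 3 (29130 and 25032 CPM) and inside the PBS range in TNF replicate 2 (17852 CPM). The higher ones included Rps25, Rpl38, Rpl34, Rps27, Rps13, Rpl6 and Rpl37, and the lower ones Rps4l, Rps10, Rps26, Rpl3, Rps4x, Rpl37a, Rpl22 and Rplp0, with 4 of each subunit among the former and 4 large and 5 small among the latter. All of these genes were picked here after their values were seen, because their shares did not overlap. Their separation was fixed by that choice. Rpl38, Rps25, Rps26 and Rpl3 were also among the largest or smallest fold changes in these same data.

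Rpl38 took 0.495, 0.404 and 0.355% of the ribosomal protein counts in PBS and 0.527, 0.569 and 0.600% in TNF. Rps25 took 0.316, 0.368 and 0.394% in PBS and 0.483, 0.417 and 0.566% in TNF. Rps26 took 1.33, 1.17 and 1.04% in PBS and 0.989, 0.879 and 0.608% in TNF, and Rpl3 2.03, 2.31 and 2.09% and 1.97, 1.56 and 1.27%. These 4 genes were picked for shares without overlap, so that their separation in TNF replicate 2 follows from the choice. The median gene of that library stood at the PBS level. TNF replicate 1 was the TNF library nearest to PBS for Rpl38, Rps26 and Rpl3. Rplp0 took 5.80, 5.69 and 6.09% in PBS and 5.25, 5.67 and 4.80% in TNF, and only TNF replicate 2 lay close to the PBS range.

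**Figure D5:**
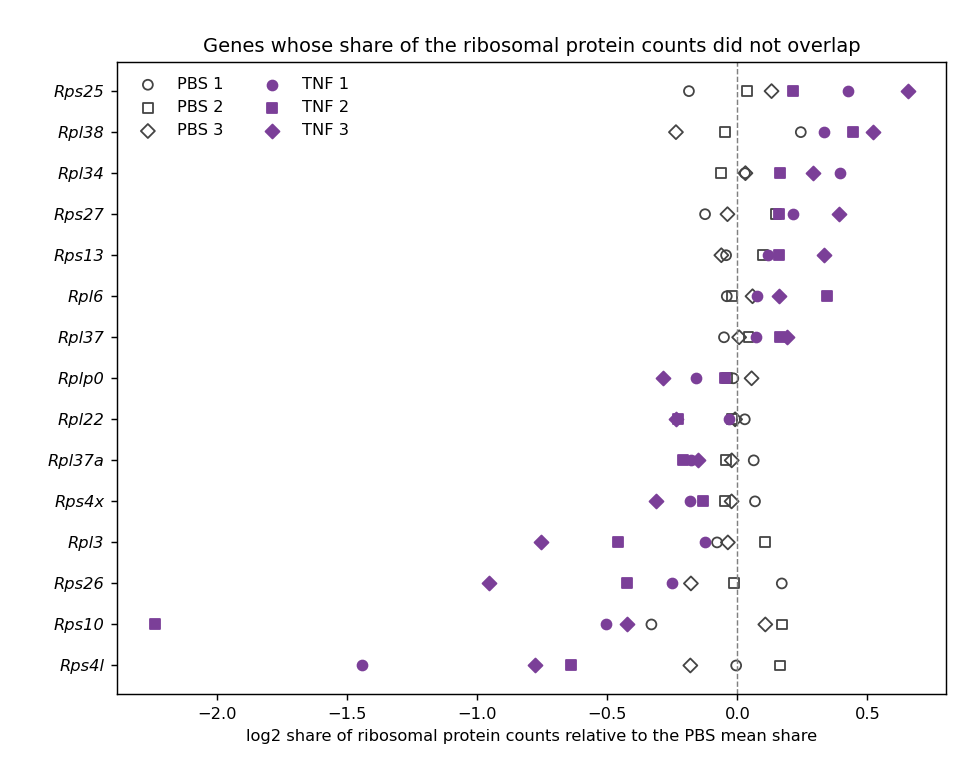
For 15 of the 17 genes whose share of the ribosomal protein counts did not overlap between groups, points give the log2 of that share relative to the mean share in PBS, open symbols for PBS and filled purple symbols for TNF libraries. The upper 7 genes have all filled symbols to the right and the lower 8 to the left of the open ones; Rps10 in TNF 2, with few counts, lies farthest out.

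Start sites were read from RefSeq promoter sequences (GRCm38.p6), which held 64 of the 85 genes. At one or more annotated starts, 13 of the 64 (20.3%) began with C followed by 4 bases that were C or T, the letters of a TOP start, against 2.77% of 9063 other tested genes. Annotated starts often miss the true first base, so that no match is no evidence that an mRNA lacks the motif. The windows below (30 bases, base 16 being the annotated start, longest run of C and T in capitals) show genes from both ends of the range of fold changes, first Rpl38, Rps25, Rps27l and Rps12, and then Rps26 and Rpl4, with Rplp2 of the stalk.
Rpl38 (chr11:114668565-114668594, plus strand): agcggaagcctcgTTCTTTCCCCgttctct
Rps25 (chr9:44407699-44407728, plus strand): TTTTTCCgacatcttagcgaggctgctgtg
Rps27l (chr9:66946071-66946100, plus strand): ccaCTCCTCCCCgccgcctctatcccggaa
Rps12 (chr10:23787195-23787224, minus strand): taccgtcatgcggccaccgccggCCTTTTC
Rps26 (chr10:128626492-128626521, minus strand): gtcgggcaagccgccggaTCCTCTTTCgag
Rpl4 (chr9:64173372-64173401, plus strand): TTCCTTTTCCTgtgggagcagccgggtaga
Rplp2 (chr7:141447636-141447665, plus strand): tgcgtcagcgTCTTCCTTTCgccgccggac

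The longest run covered the annotated start in Rpl38 and Rplp2, and lay before or after it in the other 5. The 13 genes with a C and pyrimidines at the annotated start had a median log2 fold change of 0.39 and the 48 other tested genes with a RefSeq start one of 0.44 (0.23 and 0.25 without TNF replicate 1). In the 300 bases around the start, CCGGAAG, the letters bound by GABPA and other ETS factors, was found on either strand in 40.6% of the 64 promoters against 20.7% of the others, and AAGATGG, the core of the YY1 motif, on either strand in 15.6% against 8.63%. CTTTCC on the coding strand was found in 40.6% against 17.0%, in 50% of the 40 large- and 25% of the 24 small-subunit genes. CACGTG, the E-box bound by MYC, was in 9.38% against 11.9%.

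The wider translation machinery was read from lists of its genes. None of the genes on these lists passed an adjusted p of 0.05 in edgeR with 6 libraries. DESeq2, with the same libraries, called 3 genes of the mitochondrial ribosome and 0 on the other lists, against 1.71% of all genes. Of the proteins of the mitochondrial ribosome, which is built from a separate set of genes, 67 of 77 tested had a positive log2 fold change, with a median of 0.35 and 14 higher and 0 lower at an unadjusted p under 0.05, against 8.25% and 4% of all genes. Their medians in TNF replicates 1 to 3 were 0.47, 0.09 and 0.39, the order seen for the cytosolic proteins. Mrpl33 was at 12.3, 20.3 and 15.0 CPM in PBS and 28.2, 42.9 and 52.2 CPM after TNF, without overlap (log2 fold change 1.38, SE 0.29, adjusted p 0.270 in edgeR), and Mrps6 at 3.67, 3.73 and 3.96 and at 8.65, 9.42 and 10.9 CPM (1.35, SE 0.29, adjusted p 0.270). Both passed in edgeR without TNF replicate 1, Mrpl33 at 1.60 (adjusted p 0.00127) and Mrps6 at 1.44 (adjusted p 0.0107), and the median of the set was 0.28. Without TNF replicate 1, 9 of the mitochondrial set were higher and 2 lower at the 5% level, against 0 and 0 of the cytosolic genes and 9.1% and 5.4% of all genes. The lowest log2 fold change was that of Mrpl23, under 2 CPM in every library.

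Of 18 other translation genes with TOP mRNAs 15 had a positive log2 fold change (median 0.29, and 0.16 without TNF replicate 1), led by Nap1l1 (0.49, SE 0.19) and Btf3 (0.48, SE 0.23). Eif4a2, a helicase related to the initiation factor Eif4a1, was at 133, 140 and 167 CPM in PBS and 130, 54.6 and 84.4 CPM after TNF, at -0.71 (SE 0.31, adjusted p 0.402 in edgeR); without TNF replicate 1 it was lower, at -1.06 (adjusted p 0.0150). Of 22 initiation factors 15 were positive (median 0.22, and 0.20 without TNF replicate 1). Eif6, which keeps the large subunit from joining too early, was at 57.2, 48.0 and 56.9 CPM in PBS and 55.6, 151 and 150 CPM after TNF. TNF replicate 1 was at the PBS level, so that the log2 fold change was 1.14 (SE 0.35, adjusted p 0.297 in edgeR) with and 1.5 (adjusted p 5.44e-04) without it. Eif2s2 was second at 0.55 (SE 0.21) and Eif4g1 lowest at -0.41 (SE 0.29).

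Ribosome biogenesis genes did not lean to one side. Of 41, 19 were positive and 22 negative, with a median log2 fold change of -0.02 (-0.03 without TNF replicate 1). Polr1d, a subunit shared by RNA polymerases I and III, was at 30.2, 34.2 and 43.3 CPM in PBS and 55.1, 64.9 and 80.5 CPM after TNF, without overlap (0.90, SE 0.23, adjusted p 0.270 in edgeR, 0.00828 without TNF replicate 1). Nhp2, a protein of box H/ACA particles, was at 18.8, 18.5 and 17.4 and at 26, 33.1 and 29.8 CPM (0.70, SE 0.20, and 0.81, adjusted p 0.0187 in edgeR, without TNF replicate 1), and Nat10, an RNA acetyltransferase, was lowest at -0.58 (SE 0.21), and at -0.63 without that library. Of 30 genes of growth signalling 19 were positive (median 0.14), with Lamtor5 (0.93, SE 0.31) and the kinase Eif2ak2 (0.87, SE 0.42) highest and Myc (-0.39, SE 0.29) lowest. Without TNF replicate 1 the median was 0.29, and Lamtor5 (1.14, adjusted p 0.0185) and Eif2ak2 (1.25, adjusted p 0.00901) passed in edgeR, while Myc was at -0.50. In Eif2ak2, TNF replicate 1 was at 10.5 CPM against 39.3 and 24.6 in the other TNF libraries and 10.6 to 15.9 in PBS.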

How the data were processed

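RNA of sorted PCs (3 PBS and 3 TNF libraries, each from a different mouse) was sequenced single-end. The authors deposited raw counts per gene. The submitters' processing notes name FastQC, Trimmomatic 0.39, STAR 2.7.10a, DESeq2 and the build mm39. Counting tool, annotation release, strand use and handling of reads with several matches were not given in the sources used here. Gene names, types and positions were taken from GENCODE vM39 (54749 of 55414 identifiers matched).

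Counts were fitted with edgeR 4.0.16 (glmQLFit, glmQLFTest, two-sided) in R 4.3.3 after filterByExpr (minimum count 10, minimum total 15), with TMM factors, group as the only term and Benjamini-Hochberg adjustment over 13026 genes, at a threshold of 0.05. CPM are counts scaled to the TMM-adjusted library total, and log2 CPM used a prior count of 2. Medians, shares and overlaps are descriptions without a test. Levels per kb used the coding length of the canonical transcript. Intervals and floors cover counting error only.

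Genes named in the text were the paralogue pairs, the stalk proteins, Rpsa, Rack1 and Fau, the 5 highest and 5 lowest levels, the 5 largest and 5 smallest fold changes, genes over 3 scaled median absolute deviations from the median or farthest from it in a library, and, from each list, the 2 largest fold changes and the smallest. A few items are not reported here by name. Members and lists were chosen with earlier results of these data known. Sequences came from the GRCm39 genome and RefSeq promoters (Biopython 1.88). The fit was tested on simulated data. Alternatives were other scalings (relative log expression, library size, upper quartile, TMM without genes above 1% of counts or without the genes studied), no filter, a mean of at least 5 CPM, leaving out each library, a replicate block, DESeq2 1.42.0 and limma-voom (limma 3.58.1).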

Additional observations from a re-analysis of the deposited data

Results flagged for a closer look

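As a share of raw counts, annotated ribosomal protein pseudogenes were higher in every TNF than in every PBS library. The raw share of the 85 genes showed the same separation, and the pseudogene sum was not taken on TMM-scaled totals. These pseudogenes are 323 entries of the table outside the set of 85 genes. They took 0.00525, 0.00532 and 0.00556% of all counts in PBS and 0.00737, 0.00597 and 0.00726% in TNF, a mean of 0.00687% in TNF. Of the 323, 185 had a count in some library and 22 were tested. The most counted was Rpsa-ps7, with 135, 106 and 101 counts in PBS and 141, 128 and 146 in TNF (log2 fold change 0.30, adjusted p 0.746 in edgeR).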

How the results depend on the processing

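The number of ribosomal protein genes called was 0 under every alternative, and the medians of all, large- and small-subunit genes stayed positive. Leaving out 1 library each gave medians of 0.25 to 0.55, 0.24 to 0.54 and 0.31 to 0.66, share differences of 0.326 to 0.458 percentage points (0.381 with all) and ratio differences of -0.114 to -0.0528 (-0.0805 with all). The share difference was 0.868 percentage points without the 11 abundant genes, and 0.275 when TNF replicate 1 was left out as well, a combination chosen after seeing the data. Ribosomal protein genes higher at an unadjusted p under 0.05 numbered 15 (18.3%, against 8.25% of all genes). They numbered 3 with library size alone, 8 with upper-quartile factors and 10 without the filter. Leaving out PBS replicates 1 to 3 gave 7, 3 and 2, and leaving out TNF replicates 1 to 3 gave 11, 39 and 2. The 11 were 13.4%, against 16.1% of all genes. In the other fits listed here the share of all genes was not taken, so their counts do not set these genes apart. Over all genes, 0 were called, but 1980 without TNF replicate 1, 690 without the filter and 253 by DESeq2 over all genes it tested. The sign of Rpl3 (0.02) turned with library size alone (-0.16), upper-quartile factors (-0.015), TMM without genes above 1% (-0.017), no filter (-0.012) and limma-voom (-0.034). Leaving out 1 library moved Rpl3 from -0.35 to 0.18, Rpl4 from -0.20 to 0.14, Rps26 from -0.43 to 0.076, Rps10 from -0.69 to 0.10, Rpl36al from -0.20 to 0.63 and Mrpl23 from -1.37 to 0.0052, and the cause was not tested. No other gene picked by the naming rule given above changed sign. Rpl28, named only for its overlap, was at 0.11 and went from -0.095 to 0.33 over the alternatives.

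Replicate numbers gave no sign of pairing between the mice (correlations of same-numbered deviations -0.01, -0.07 and 0.03). Such correlations cannot exclude a shared litter or batch, which the labels did not give. With a replicate block 0 genes were called, the median log2 fold change was 0.40 and Rpl3 was at -0.052. In that fit 8 ribosomal protein genes were higher at an unadjusted p under 0.05, and the share of all genes was not taken.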
